A study of Mus musculus with 19 samples.

Results

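The genes described here are 51 collagens and other extracellular matrix genes, with the enzymes and the chaperone that modify collagen, listed by symbol with no threshold on their values, though the list was drawn up with earlier results of these data known. Of these, 47 had at least 1 probe set of their own on the array, 103 probe sets in all among the 34945 that the platform annotation gives to 1 gene, and 37 of the 47 had more than 1. Fibrillin 1 (Fbn1), fibulin 4 (Efemp2) and osteopontin (Spp1) are not listed in the probe annotation used here, and both probe sets of the lysyl oxidase relative Loxl2 are listed with more than 1 gene, so these 4 genes were not analysed here. The 47 are 7 fibrillar collagens, 6 other collagens, 10 basement membrane genes, 5 elastic fibre genes, 7 glycoproteins, 5 genes of proteoglycans and hyaluronan, and 7 collagen-modifying genes. All 47 genes, through 94 of the 103 probe sets, passed the filter on low signal and were tested.

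The cells were NIH3T3, a mouse embryo fibroblast line in long use, and their transcripts were read on 19 Affymetrix arrays in 11 groups. All cells were first made quiescent by 48 h in medium with 0.1% serum. The treated groups were then given bFGF, a basic fibroblast growth factor that drives fibroblasts to divide, at 50 ng/ml, written FGF here, for 1, 4, 7 or 12 h. In the inhibitor groups U0126 (20 µM), which blocks the kinase MEK and so the activation of its target ERK, was added at -0.5 h relative to FGF and the cells were measured at the same 4 times. In a pair of further groups U0126 came late, at 1 h with measurement at 7 h, or at 7 h with measurement at 12 h. At 4, 7 and 12 h the FGF groups with and without early U0126 had 1 array from each of experiments 1 and 2. Both 1 h groups and both late U0126 groups were 1 array of experiment 1, assumed in the fit to vary like the rest. Where these groups are compared with groups of both experiments, a difference between experiments enters unless the fit includes the experiment. Quiescent cells had 3 arrays, of which 1a and 1b belong to experiment 1 and entered the fit as their mean. Since nothing in the labels ties replicates to separate cultures, p-values here rest on a spread between samples that may be technical. There was no U0126 without FGF and no later time without FGF, so a change against quiescence cannot be told apart from time in culture, and here "with FGF" includes that time.

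Fibrillar collagens are made as procollagen, hydroxylated on proline and lysine and folded in the endoplasmic reticulum with the help of a dedicated chaperone, secreted, trimmed, assembled into fibrils and cross-linked by lysyl oxidases. Around the fibrils lie filaments of type VI collagen, small leucine-rich proteoglycans that bind them, elastic fibres, and glycoproteins such as fibronectin, tenascin and the thrombospondins that cells bind and that change during wound repair. Basement membranes are a separate sheet of laminin and type IV collagen joined by nidogens and perlecan. Fibroblasts are the main source of fibrillar matrix, and resting fibroblasts are known for high collagen expression.

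Values are MAS5 signals, on a linear scale that the authors set to the same trimmed mean of 500 on every array, and they are not comparable between probe sets. Differences are log2 differences ± SE from limma, on log2(signal + 13.6), where adjusted p-values follow Benjamini and Hochberg across the 14996 genes tested, and "rose" and "fell" mean an adjusted p under 0.05. A value given with "leaving out" or another setting is the adjusted p under that change alone, with arrays left out 1 at a time, and the most variable probe set is the kept one of highest variance across arrays. That probe set can be a dim one, as for Dcn, Fbln2, Fbln5, Plod1 and Vcan. Leaving out an array of a compared FGF group, or quiescent replicate 2, also lowered the share of all genes that passed, where any had. Median signals per array were 60.2 to 88.3. In bulk RNA, fewer cells that make a transcript and less of it per cell cannot be told apart. Of 8 fibroblast markers 7 were above 45.2, the 40th percentile of all values, on all arrays, and 0 of 6 endothelial markers were; the macrophage, epithelial, chondrocyte or bone, and adipocyte lists had 3 of 6, 1 of 6, 1 of 5 and 1 of 5. The 1 adipocyte gene above that limit was Lpl, a lipase with a median signal of 16981, while Adipoq, Pparg and Fabp4, which define adipocytes, had medians of 15, 7 and 19.

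Matrix genes, each read by its brightest probe set, had most calls at 12 h of FGF, and these were mostly lower. After 1 h, 0 of the 47 genes were higher and 1 lower than in quiescent cells, where 0.48% of all 14996 genes changed. After 4 h, 3 were higher and 0 lower, where 3.92% of all genes were higher and 4.98% lower. After 7 h, 2 were higher and 6 lower, where the shares of all genes were 5.45% and 7.2%. After 12 h, 2 were higher and 16 lower, that is 4.26% and 34% of the 47, where 8.55% and 11.8% of all genes were higher and lower. The median of the 47 log2 differences at 12 h was -0.34, that of all genes was -0.01, and 37 of the 47 lay below 0. Between 4 and 12 h of FGF 0 rose and 8 fell, where 3.65% and 2.9% of all genes did. With the experiment number as a block, which pairs the samples, the counts were 4, 7, 14 and 24 genes at 1, 4, 7 and 12 h. Of all genes 1.57%, 17.7%, 21.6% and 30% changed there. Between 4 and 12 h the count was 15 (all genes 14.1%). The block gave 3 higher and 1 lower at 1 h, and 4 higher and 3 lower at 4 h. With the most variable probe set, or the mean of probe sets, 3 were higher and 1 lower at 4 h (all genes 5.38% and 7.76% in either direction). Some dimmer probe sets lay lower by 4 h, as given below for Thbs2, Col3a1 and Fn1, and 1 of Nid1 lay higher. In the counts that follow without a named array, the share of all genes that passed fell as well. Of the 18 calls at 12 h 7 stayed past the limit whichever array of the compared groups was left out, and the count was 9 without quiescent replicate 2 and 11 without either array of FGF 12 h. Between 4 and 12 h the count was 1 or 2 without FGF 4 h replicate 2 or an array of FGF 12 h, and 5 without FGF 4 h replicate 1. At 7 h it was 3 without quiescent replicate 2 or FGF 7 h replicate 1, and at 4 h it was 1 without FGF 4 h replicate 2.

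U0126 changed matrix genes in both directions, on average in shares close to those of all genes. At 1 h 0 of 47 changed in limma, where 0.18% of all genes did. Before adjustment 2 of the 47 had a p under 0.05, for which no share of all genes was computed. At 4 h and at 7 h 3 were lower and 0 higher with FGF and U0126 than with FGF alone, where 3.2% and 3.03% of all genes were higher and 2.73% and 3.04% lower. At 12 h 6 were higher and 3 lower, where 6.26% and 5.79% of all genes were, and the 9 calls became 4 without either array of FGF 12 h and 5 without FGF 12 h + U0126 replicate 2. Averaged over 4, 7 and 12 h, 5 were higher and 5 lower, or 10.6% each of the 47, where 11.7% and 10.3% of all genes were. The median of that average was 0.02 over the 47 genes and 0.01 over all genes. With the block the counts were 1, 9, 7 and 16 at 1, 4, 7 and 12 h, and 16 for the average (all genes 1.05%, 13%, 12.5%, 20.6% and 30.6%). Compared with quiescent cells, FGF with U0126 gave 0 higher and 2 lower at 4 h, 1 higher and 7 lower at 7 h, and 2 higher and 6 lower at 12 h. Of all genes 3.31% were higher and 4.07% lower at 4 h, 3.73% and 5.33% at 7 h, and 2.43% and 2.99% at 12 h. The block gave 11, 23 and 19 (all genes 15%, 18.5% and 14.4%). Leaving out an array moved the counts to 0 at 4 h (quiescent replicate 2 or FGF 4 h + U0126 replicate 2), 3 at 7 h (FGF 7 h + U0126 replicate 1) and 5 at 12 h (FGF 12 h + U0126 replicate 2). These comparisons share their quiescent arrays with those of FGF alone, and those of U0126 share the FGF arrays.

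**Figure D1:**
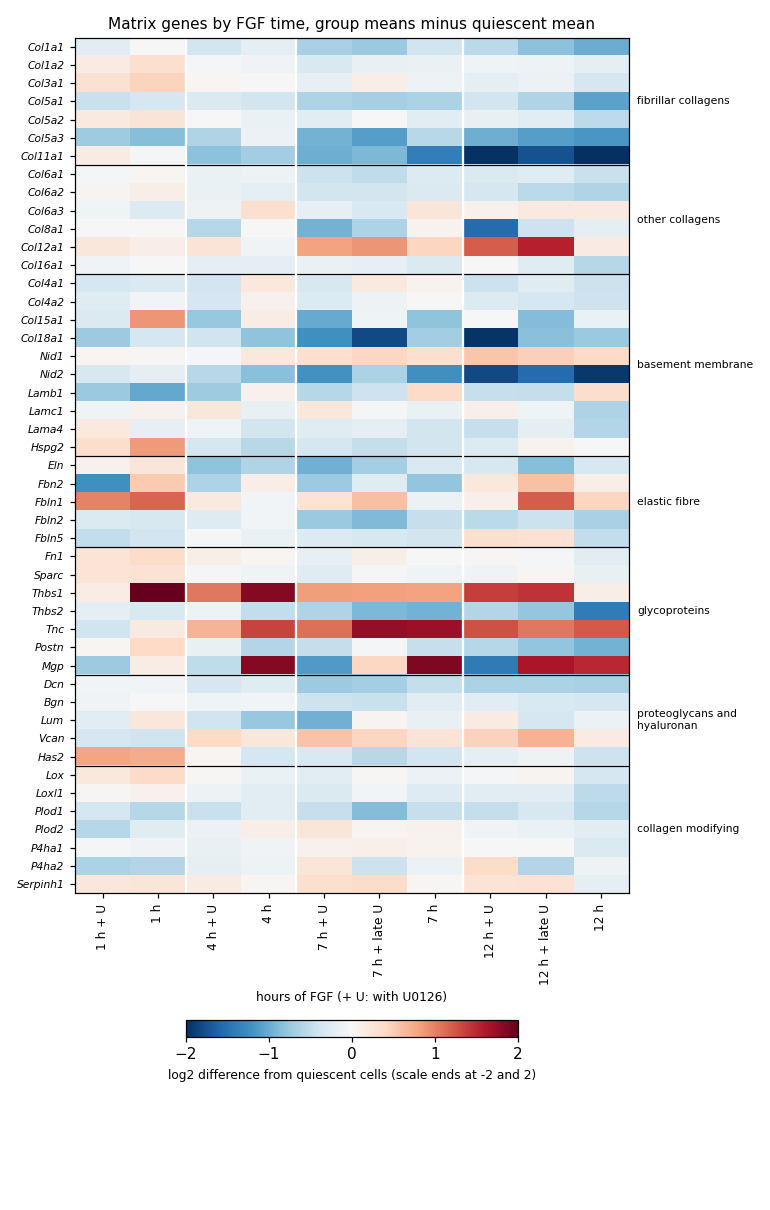
Log2 difference of each group mean from the quiescent mean for the 47 matrix genes (rows, in blocks by role) in the 10 FGF groups (columns by hours of FGF, + U with U0126 from -0.5 h, + late U with U0126 added at 1 or 7 h); red is higher and blue lower than in quiescent cells, and the scale ends at -2 and 2. Blue deepens toward 12 h of FGF alone in many collagen rows; with early U0126 it is as deep at 12 h for Col11a1 and Nid2, and Mgp is red with FGF alone and blue with early U0126.

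Promoters are shown for Col11a1 and Thbs2, which fell with FGF, and for Lamb1, which fell with U0126; they are 3 genes that the results below turn on and that have a listed start site. Each is the 250 bases before the first start that RefSeq lists on GRCm38.p6, written 5′ to 3′ on the gene's strand, with CCAAT, or its reverse complement ATTGG, in capitals. The Col11a1 window is chr3:114030290-114030539 on the plus strand, the Thbs2 window is chr17:14694263-14694512 on the minus strand, and the Lamb1 window is chr12:31265043-31265292 on the plus strand.

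Col11a1: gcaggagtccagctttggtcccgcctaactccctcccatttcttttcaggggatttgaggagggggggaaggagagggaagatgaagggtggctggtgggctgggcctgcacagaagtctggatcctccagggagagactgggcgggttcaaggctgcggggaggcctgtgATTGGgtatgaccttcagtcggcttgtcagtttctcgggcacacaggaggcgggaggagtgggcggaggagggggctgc

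Thbs2: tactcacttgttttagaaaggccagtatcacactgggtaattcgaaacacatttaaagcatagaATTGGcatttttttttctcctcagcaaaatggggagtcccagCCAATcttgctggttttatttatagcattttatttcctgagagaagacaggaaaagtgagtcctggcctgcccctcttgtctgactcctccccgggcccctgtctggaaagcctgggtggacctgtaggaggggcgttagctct

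Lamb1: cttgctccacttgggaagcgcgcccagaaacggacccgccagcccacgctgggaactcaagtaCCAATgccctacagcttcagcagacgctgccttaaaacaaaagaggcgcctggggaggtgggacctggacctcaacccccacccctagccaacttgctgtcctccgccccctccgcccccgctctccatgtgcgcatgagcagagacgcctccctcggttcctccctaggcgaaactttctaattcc

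The CCAAT box, which binds NF-Y and is known from collagen promoters, stood once in the Col11a1 and Lamb1 windows and at 2 places in that of Thbs2. Of the 51 genes 33 had such a window. CCAAT was in 13 of the 33 (39.4%) on either strand, and in 34.5% of the 27018 windows of all genes. The AP-1 letters TGANTCA were in 1 of 33 (3%; all genes 6.9%), the hypoxia response core ACGTG in 7 (21.2%; all genes 16.6%), the SMAD letters CAGAC in 16 (48.5%; all genes 42.1%) and TATAAA in 5 (15.2%; all genes 13%). Among the 9 genes that fell at 12 h and had a window, the counts were 4, 0, 1, 6 and 2. The letters of no motif contain those of another, both strands were searched for each, and a match is not shown to be a bound site.

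Among the fibrillar collagens 0 of 7 rose and 4 fell at 12 h of FGF (all genes 8.55% and 11.8%), and their median difference was -0.98. Col11a1, the type XI chain best known from cartilage fibrils, changed most. Its signal was 573, 428 and 389 in quiescent cells, 428 at 1 h, 263 and 270 at 4 h, 172 and 150 at 7 h and 113 and 87.1 at 12 h. The arrays of 4, 7 and 12 h lay in 3 steps, each below the one before. At 12 h the difference from quiescence was -2.0 ± 0.23 (adjusted p = 2.98e-05), and at 7 h it was already -1.38 ± 0.23 (adjusted p = 0.0013; 0.23 with its most variable probe set). Between 12 and 4 h it was -1.31 ± 0.23 (adjusted p = 0.0025; 0.25 with its most variable probe set). At 4 h it was -0.69 ± 0.23 (adjusted p = 0.0803; 0.035 with the block). With early U0126 the 12 h arrays read 89.3 and 114, again far below the quiescent arrays, a difference of -1.98 ± 0.23 (adjusted p = 0.00015; 0.055 with its most variable probe set). The U0126 effect at 12 h was 0.02 ± 0.23 (adjusted p = 0.98), with the arrays of both groups overlapping.

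Col5a1, a type V chain that limits the width of collagen fibrils, had signals of 3659 and 4107 at 12 h of FGF, against 5980, 8188 and 9500 in quiescent cells. The groups did not overlap, and the difference was -1.07 ± 0.19 (adjusted p = 0.0012). With U0126 the 12 h arrays were at 5847 and 6779, above both arrays of FGF alone. That difference was 0.70 ± 0.19 (adjusted p = 0.029), a call lost without any 1 of the arrays it compares (0.062 to 0.198 leaving out FGF 12 h replicates 1 or 2 or FGF 12 h + U0126 replicates 1 or 2). Col5a2, the partner chain of type V, fell by 0.53 ± 0.14 at 12 h (adjusted p = 0.014; 0.15 leaving out FGF 12 h replicate 1 and 0.053 leaving out quiescent replicate 2). Its signals were 13564 and 16725 at 12 h, against 22381, 22417 and 21008 in quiescent cells, without overlap. Col5a3 was -1.16 ± 0.52 at 12 h without passing (adjusted p = 0.14), and passed with the block (adjusted p = 0.00027); its quiescent arrays ran from 1346 to 3719.

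Col1a1, the main chain of type I collagen, had signals of 7351 and 8261 at 12 h of FGF, against 14196, 14384 and 16676 in quiescent cells. It fell by 0.98 ± 0.24 (adjusted p = 0.0099; 0.075 leaving out FGF 12 h replicate 1 and 0.088 leaving out quiescent replicate 2). At 7 h it was -0.39 ± 0.24 (adjusted p = 0.37; 0.025 with the block), and experiments 1 and 2 stood apart there, at 9305 and 14827. With U0126 the 12 h signals were 8708 and 12873, above both arrays of FGF alone by 0.44 ± 0.24 without passing (adjusted p = 0.31; 0.013 with the block). The brightest probe sets of Col1a2, which completes the type I triple helix, and Col3a1, type III collagen, did not pass at any time. They are among the brightest on the arrays. At 12 h Col1a2 read 22353 and 30288, against 30727, 29964 and 29163 in quiescent cells (-0.19 ± 0.18, adjusted p = 0.52). Col3a1 read 23824 and 30400, against 38543, 32928 and 32480 (-0.34 ± 0.15, adjusted p = 0.15), with no overlap between the groups. Dimmer probe sets of both genes were lower at 12 h, as given below. That of Col3a1 already read 8446 and 8552 at 4 h, against 17221, 11738 and 11245 in quiescent cells.

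**Figure D2:**
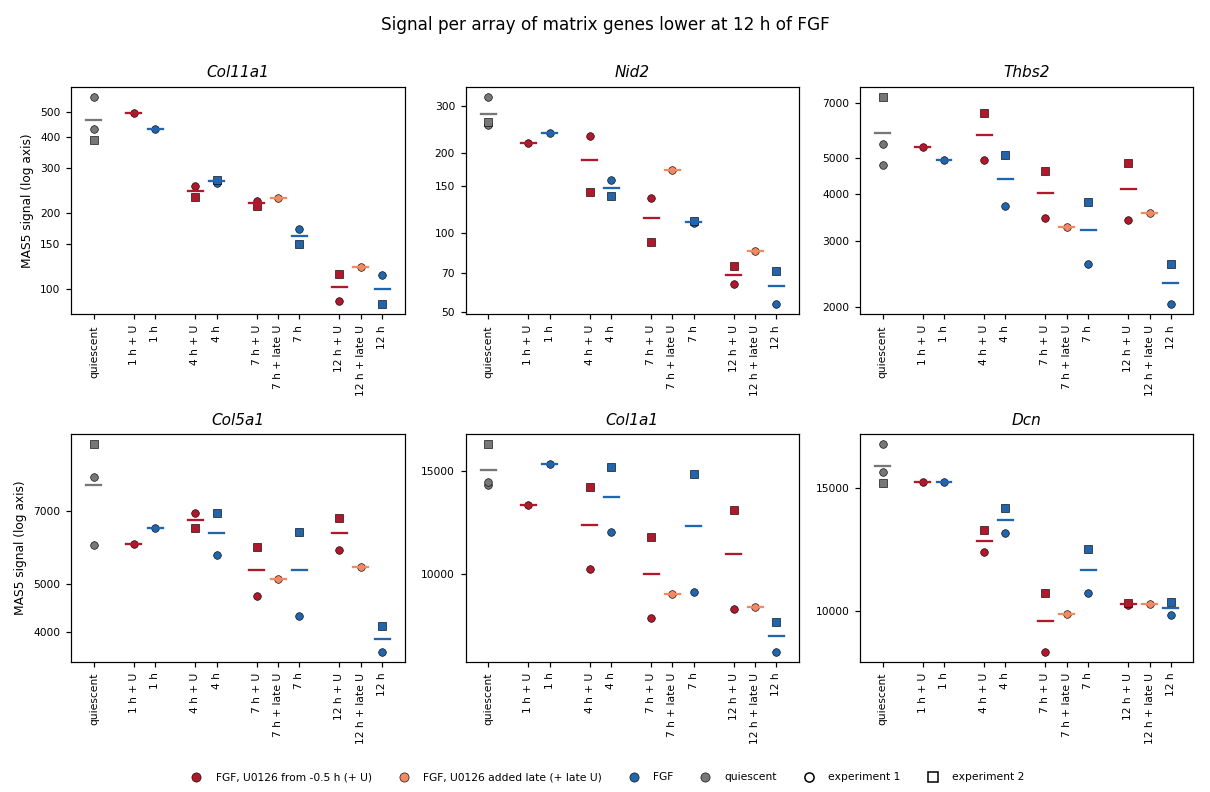
MAS5 signal on a log axis for 6 matrix genes that fell by 12 h of FGF, 1 panel each; points are arrays (circles experiment 1, squares experiment 2), short bars are means over a group's arrays, and columns run by hours of FGF with U0126 groups left of FGF alone. In all 6 panels both 12 h arrays of FGF alone lie below all 3 quiescent arrays, and for Col11a1, Nid2, Dcn and Col1a1 the 12 h arrays with U0126 lie there too.

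Of the 6 other collagens, Col6a2 fell at 12 h of FGF and 0 rose (all genes 11.8% and 8.55%). Col6a2, a chain of the beaded type VI filaments, read 9098 and 10191 at 12 h, against 13409, 14749 and 15081 in quiescent cells, a difference of -0.60 ± 0.15 (adjusted p = 0.0104; 0.086 leaving out FGF 12 h replicate 1 and 0.084 leaving out quiescent replicate 2). The other type VI chains did not follow it past the limit: Col6a1 was -0.45 ± 0.17 (adjusted p = 0.083; 0.012 with the block) and Col6a3 was 0.18 ± 0.14 (adjusted p = 0.41). Averaged over the 3 times, Col6a3 with U0126 fell by 0.31 ± 0.08 (adjusted p = 0.0092). At 4 h it read 6640 and 6430 with U0126, against 8639 and 8877 with FGF alone, and at 12 h the arrays of both groups overlapped. Col16a1, a fibril-associated chain, was -0.58 ± 0.22 at 12 h of FGF (adjusted p = 0.077; 0.0014 with the block).

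Col8a1 and Col12a1 moved with U0126 in opposite directions. Col8a1, a short-chain collagen that forms networks in vessel walls, was not called with FGF alone, at 1868 and 1915 at 12 h, against 2292, 2349 and 2035 in quiescent cells (-0.20 ± 0.16, adjusted p = 0.47). With early U0126 it read 1673 and 1279 at 4 h, 1053 and 1185 at 7 h and 724 and 748 at 12 h. Its arrays with U0126 lay below those with FGF alone at each of these times. The U0126 effect was -0.58 ± 0.16 at 4 h without passing (adjusted p = 0.053; 0.013 with the block), -1.03 ± 0.16 at 7 h (adjusted p = 0.0012) and -1.35 ± 0.16 at 12 h (adjusted p = 6.4e-05). When U0126 was added only at 7 h, Col8a1 was 1633 at 12 h, above both arrays with early U0126 by 1.14 ± 0.20 (adjusted p = 0.016; 0.064 leaving out FGF 12 h + U0126 replicate 1 and 0.099 leaving out FGF 12 h + U0126 replicate 2; 0.4 with its most variable probe set and 0.12 with the mean of its probe sets). This comparison of late with early U0126 was added after the data were seen. In it 2 of the 47 genes differed, Col8a1 and Mgp, where 0.674% of all genes did, and the block gave 2 as well (2.25%).

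Col12a1, a collagen that sits on the surface of type I fibrils, read 733 and 748 at 12 h with early U0126 and 938 with U0126 from 7 h, against 346 and 354 with FGF alone. All 3 inhibitor arrays were above both arrays of FGF alone. The difference was 1.05 ± 0.26 for early U0126 (adjusted p = 0.016; 0.076 to 0.092 leaving out FGF 12 h replicates 1 or 2 or FGF 12 h + U0126 replicates 1 or 2). It was 1.39 ± 0.32 for late U0126 (adjusted p = 0.021; 0.082 leaving out FGF 12 h replicate 1 and 0.086 leaving out FGF 12 h replicate 2; 0.099 with the mean of probe sets). Averaged over 4, 7 and 12 h Col12a1 rose by 0.59 ± 0.15 with U0126 (adjusted p = 0.012). With FGF and early U0126 at 12 h it was also higher than in quiescent cells, at 374, 352 and 267, by 1.21 ± 0.26 (adjusted p = 0.014; 0.082 to 0.17 leaving out FGF 12 h + U0126 replicates 1 or 2 or quiescent replicate 2). For FGF with late U0126, 2 of the 47 genes were higher and 1 lower at 12 h than with FGF alone, where 2.47% and 2.58% of all genes were. The block gave 10 (11.3%), and without FGF 12 h replicate 2 the count was 0.

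Basement membrane genes fell in 5 of 10 cases at 12 h of FGF, and 0 rose (all genes 11.8% and 8.55%). Nid2, a nidogen, a protein that bridges laminin and type IV collagen, read 256, 326 and 263 in quiescent cells, 238 at 1 h, 158 and 137 at 4 h, 109 and 111 at 7 h and 53.6 and 71.6 at 12 h. It fell by 1.23 ± 0.30 at 7 h (adjusted p = 0.013; 0.065 leaving out FGF 7 h replicate 1 and 0.069 leaving out quiescent replicate 2) and was at -1.93 ± 0.30 at 12 h (adjusted p = 0.00031). With U0126 it read 64 and 74.5 at 12 h, also below all quiescent arrays, a difference of -1.81 ± 0.30 (adjusted p = 0.00196), and the U0126 effect at 12 h was 0.13 ± 0.30 (adjusted p = 0.87). Its relative Nid1 was not lower on the arrays: it read 7772 and 11565 at 12 h, against 7046, 5794 and 8343 in quiescent cells (0.38 ± 0.22, adjusted p = 0.27; 0.0104 with the block). A dimmer probe set of Nid1 read 2207 and 3505 at 4 h and 2157 and 3512 at 12 h, against 985, 1410 and 1676. Its difference at 12 h was 0.96, and none of the 3 kept probe sets of Nid1 passed there. The differences of Nid2 and Nid1 were not tested against each other.

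Col4a1 and Col4a2, the type IV chains, are known to lie head to head and to share a promoter, and here they ran close together. With 12 h of FGF Col4a1 fell by 0.43 ± 0.12 (adjusted p = 0.024; 0.063 to 0.24 leaving out FGF 12 h replicates 1 or 2 or quiescent replicate 2). Col4a2 fell by 0.41 ± 0.12 (adjusted p = 0.0296; 0.099 to 0.2 leaving out FGF 12 h replicates 1 or 2 or quiescent replicate 2). At 4 h of FGF both were higher than at 12 h: Col4a1 read 5660 and 5323 at 12 h, against 8171 and 8957 at 4 h, and Col4a2 read 3623 and 3691, against 4825 and 5495. The difference between these times was -0.64 ± 0.12 for Col4a1 (adjusted p = 0.0051; 0.052 leaving out FGF 12 h replicate 2 and 0.073 leaving out FGF 4 h replicate 2; 0.24 with its most variable probe set). For Col4a2 it was -0.49 ± 0.12 (adjusted p = 0.027; 0.11 to 0.24 leaving out FGF 12 h replicates 1 or 2 or FGF 4 h replicate 2; 0.062 with its most variable probe set). At 4 h with U0126 Col4a1 read 5702 and 5556, below FGF alone, a difference of -0.60 ± 0.12 (adjusted p = 0.0084; 0.093 leaving out FGF 4 h replicate 2 and 0.059 leaving out FGF 4 h + U0126 replicate 2; 0.201 with its most variable probe set). Its average U0126 effect was -0.33 ± 0.07 (adjusted p = 0.0034; 0.13 with its most variable probe set). Col4a2 at 4 h read 3760 and 3897 with U0126, a difference of -0.43 ± 0.12 that passed only with the block (adjusted p = 0.058; 0.0064 with it).

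The laminin chains are given in turn, and were not tested against each other. Lamb1, the beta chain of the common laminins, was the 1 gene of the 47 that changed at 1 h: it read 2259, against 3566, 4948 and 5025 in quiescent cells, a difference of -1.02 ± 0.18 (adjusted p = 0.016; 0.11 leaving out quiescent replicate 1b and 0.18 leaving out quiescent replicate 2; 0.67 with its most variable probe set and 0.18 with the mean of its probe sets). It was back at 5235 and 4579 at 4 h and read 5266 and 6464 at 12 h (0.34 ± 0.15, adjusted p = 0.13). With early U0126 it read 2732 at 1 h, 2987 and 2612 at 4 h, 3016 and 3172 at 7 h and 3157 and 3525 at 12 h. From 4 h on, every array with U0126 was below every array with FGF alone at the same time. The difference was -0.81 ± 0.15 at 4 h (adjusted p = 0.0039; 0.055 leaving out FGF 4 h replicate 1; 0.096 with its most variable probe set). It was -0.95 ± 0.15 at 7 h (adjusted p = 0.00095) and -0.80 ± 0.15 at 12 h (adjusted p = 0.0021). Late U0126 gave the same direction, with 3456 at 7 h (-0.80 ± 0.18, adjusted p = 0.024; 0.096 leaving out FGF 7 h replicate 1; 0.052 with 75th percentile scaling and 0.19 with its most variable probe set). U0126 from 7 h gave 3290 at 12 h (-0.82 ± 0.18, adjusted p = 0.016; 0.12 leaving out FGF 12 h replicate 2; 0.18 with its most variable probe set). For U0126 from 1 h, Lamb1 and Mgp were the genes of the 47 that changed at 7 h, where 3.59% of all genes did, and the block gave 4 (7.49%).

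Lamc1, the gamma chain that pairs with it, read 1078 and 1061 at 12 h of FGF, against 1619, 1641 and 1667 in quiescent cells. It fell by 0.62 ± 0.17 (adjusted p = 0.016; 0.0699 to 0.088 leaving out FGF 12 h replicates 1 or 2 or quiescent replicate 2). With U0126 it read 1468 and 2130, above both arrays of FGF alone by 0.72 ± 0.17 (adjusted p = 0.0099; 0.057 to 0.15 leaving out FGF 12 h replicates 1 or 2 or FGF 12 h + U0126 replicate 2). The average over 3 times was 0.48 ± 0.10 (adjusted p = 0.0019; 0.22 with its most variable probe set). Its dimmer probe set went the other way at 12 h of FGF (0.41, adjusted p = 0.41 among all kept probe sets). Lama4, an alpha chain of vessel laminins, was called lower at 12 h with a difference of -0.58 ± 0.20 (adjusted p = 0.0497; 0.0601 to 0.27 leaving out FGF 12 h replicates 1 or 2 or quiescent replicates 1a or 2; 0.071 with quantile normalization, 0.08 with 75th percentile scaling, 0.059 with no filter and 0.051 with an offset of 1). Its other probe set was at 0.01. Perlecan (Hspg2) was -0.0039 ± 0.34 at 12 h of FGF (adjusted p = 0.99). Col18a1, which holds endostatin, was lower with FGF and U0126 at 12 h than in quiescent cells, a difference of -1.96 ± 0.54, with arrays of 17.5 and 113, against 200, 219 and 253 (adjusted p = 0.048; 0.053 to 0.42 leaving out FGF 12 h + U0126 replicate 1 or quiescent replicates 1b or 2; 0.22 with the mean of probe sets, 0.078 with no filter, 0.057 with an offset of 1 and 0.066 with its most variable probe set). Its U0126 array of experiment 1 and 4 arrays of Col15a1 lay under 45.2.

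**Figure D3:**
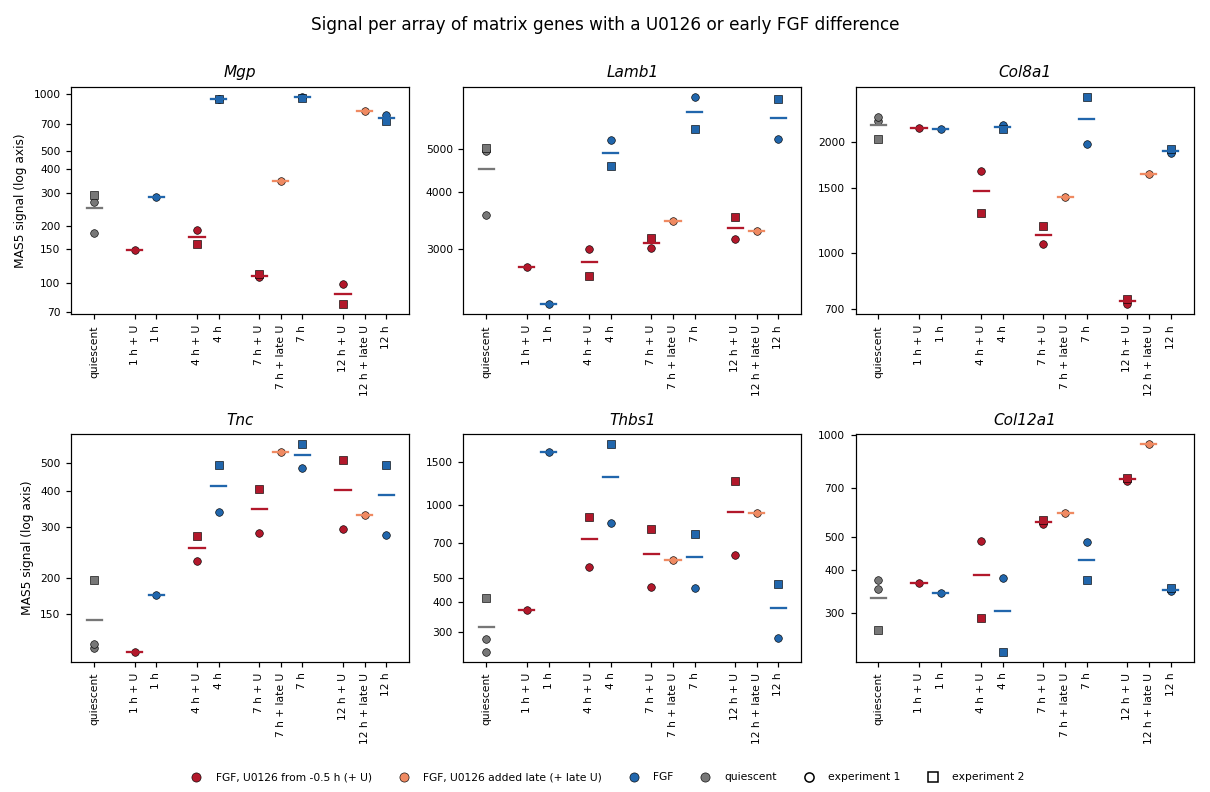
MAS5 signal on a log axis for 6 matrix genes that differed with U0126 or early after FGF, laid out as in the plot of the genes that fell: points are arrays, bars group means, and U0126 groups stand left of FGF alone at each time. For Mgp, Lamb1 and Col8a1 both arrays with early U0126 lie below those with FGF alone at 4, 7 and 12 h, and for Col12a1 they lie above at 7 and 12 h.

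Of the 5 elastic fibre genes measured, Fbln2 fell at 12 h of FGF (all genes 11.8%). Fbln2, a fibulin of elastic fibres and basement membranes, read 6056 and 5269 at 12 h, against 7016, 9926 and 9377 in quiescent cells. The difference was -0.65 ± 0.16 (adjusted p = 0.012; 0.058 to 0.104 leaving out FGF 12 h replicate 2 or quiescent replicates 1b or 2). With U0126 at 7 h, against quiescence, it fell by 0.75 ± 0.16 (adjusted p = 0.0102; 0.052 to 0.16 leaving out FGF 7 h + U0126 replicate 1 or quiescent replicates 1b or 2; 0.58 with the mean of probe sets and 0.76 with its most variable probe set). Fbln5, a fibulin needed for elastic fibre assembly, read 9337 and 8274 at 12 h with early U0126 and 8615 with late U0126, against 5628 and 4394 with FGF alone. All 3 inhibitor arrays were the higher ones. The difference was 0.82 ± 0.17 for early (adjusted p = 0.0046; 0.074 leaving out FGF 12 h replicate 2 and 0.052 leaving out FGF 12 h + U0126 replicate 1). It was 0.79 ± 0.21 for late U0126 (adjusted p = 0.039; 0.23 leaving out FGF 12 h replicate 2; 0.092 with the mean of probe sets, 0.055 with no filter, 0.72 with its most variable probe set and 0.0697 with quantile normalization). At 4 and 7 h the U0126 effect on Fbln5 was 0.08 ± 0.17 and 0.10 ± 0.17 (adjusted p = 0.87 and 0.84), and whether it differed between the 3 times passed only with the block (F test, adjusted p = 0.3; 0.042 with it). In that limma F test 0 of the 47 genes passed without the block, where 1.03% of all genes did, and 3 passed with it (3.83%). Before adjustment 6 of the 47 had a p under 0.05 without the block, and no such share of all genes was computed. Fbln5 at 12 h of FGF against quiescence was -0.49 ± 0.17 (adjusted p = 0.052; 0.0094 with the block). Elastin (Eln), fibrillin 2 (Fbn2) and Fbln1 did not pass in any comparison; 14 of the 19 arrays had Fbn2 under 45.2, so no level above background was shown there.

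The genes that rose with FGF alone were glycoproteins: Mgp, Tnc and Thbs1. Mgp, matrix Gla protein, a small secreted inhibitor of calcification, read 183, 270 and 291 in quiescent cells, 285 at 1 h of FGF, 941 and 952 at 4 h, 970 and 959 at 7 h and 778 and 723 at 12 h. The arrays from 4 h on were all above the quiescent ones, and those of 4 and 7 h were alike. The differences were 1.84 ± 0.20 at 4 h (adjusted p = 7.3e-05), 1.87 ± 0.20 at 7 h (adjusted p = 5.1e-05) and 1.51 ± 0.20 at 12 h (adjusted p = 9.1e-05). With early U0126 it read 148 at 1 h, 190 and 161 at 4 h, 108 and 111 at 7 h and 97.9 and 76.9 at 12 h. At 7 and 12 h these arrays were below the quiescent ones as well, with differences of -1.13 ± 0.20 (adjusted p = 0.0023) and -1.42 ± 0.20 (adjusted p = 0.00056). Against FGF alone the difference with U0126 was -2.35 ± 0.20 at 4 h (adjusted p = 6.7e-06), -3.0 ± 0.20 at 7 h (adjusted p = 6.6e-07) and -2.93 ± 0.20 at 12 h (adjusted p = 3.7e-07). On average it was -2.76 ± 0.11 (adjusted p = 5.9e-10), and none of these Mgp calls was lost when an array was left out.

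Mgp differed between late and early U0126 at 12 h. With U0126 from 7 h its 12 h signal was 816, higher than both arrays of FGF alone, and differed from early U0126 by 3.05 ± 0.24 (adjusted p = 5.3e-05). The difference of late U0126 from FGF alone was 0.12 ± 0.24 (adjusted p = 0.87). With U0126 from 1 h the 7 h signal was 345, below FGF alone, a difference of -1.45 ± 0.24 (adjusted p = 0.0028), and above early U0126 by 1.55 ± 0.24 without passing (adjusted p = 0.23; 0.032 with the block). In this limma comparison at 7 h 0 of the 47 genes passed, where 0% of all genes did, and the block gave 1 (0.0267%). Before adjustment 3 of the 47 had a p under 0.05 without the block, and no such share of all genes was computed.

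Tnc, tenascin C, a glycoprotein of wounds and embryonic tissue, read 115, 118 and 197 in quiescent cells, 174 at 1 h, 338 and 491 at 4 h, 480 and 577 at 7 h and 282 and 488 at 12 h of FGF. All arrays from 4 h on exceeded the quiescent ones. It rose by 1.35 ± 0.33 at 4 h (adjusted p = 0.019; 0.18 leaving out FGF 4 h replicate 2), 1.71 ± 0.33 at 7 h (adjusted p = 0.0034) and 1.22 ± 0.33 at 12 h (adjusted p = 0.017; 0.19 leaving out FGF 12 h replicate 2). With U0126 at 12 h Tnc was at 294 and 510, close to FGF alone (0.06 ± 0.33, adjusted p = 0.95) and above quiescence by 1.28 ± 0.33 (adjusted p = 0.036; 0.27 leaving out FGF 12 h + U0126 replicate 2; 0.056 with no filter and 0.052 with its most variable probe set). At 4 and 7 h the arrays with U0126 lay below those of FGF alone, at 229 and 278 and at 285 and 406. The differences were -0.66 ± 0.33 and -0.61 ± 0.33 (adjusted p = 0.32 and 0.39; 0.026 and 0.042 with the block).

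Thbs1, thrombospondin 1, an adhesive glycoprotein that activates latent TGF-beta and limits angiogenesis, was high early after FGF. It read 250, 280 and 417 in quiescent cells, 1661 at 1 h, 842 and 1778 at 4 h, 457 and 762 at 7 h and 282 and 471 at 12 h. The arrays of 1 and 4 h were above both arrays of 12 h. The difference at 1 h was 2.28 ± 0.52 (adjusted p = 0.084; 4.3e-08 with the block). At 4 h Thbs1 rose by 1.84 ± 0.42 (adjusted p = 0.013; 0.17 leaving out FGF 4 h replicate 2). Between 4 and 12 h it fell by 1.71 ± 0.42 (adjusted p = 0.024; 0.23 leaving out FGF 12 h replicate 1 and 0.26 leaving out FGF 4 h replicate 2). With U0126 it read 371 at 1 h, a difference from FGF alone of -2.12 ± 0.60 (adjusted p = 0.26; 8.7e-06 with the block), and 623 and 1255 at 12 h, a difference of 1.25 ± 0.42 (adjusted p = 0.074; 4.4e-06 with the block). The U0126 difference was thus below 0 at 1 h and above 0 at 12 h. Its change over 4, 7 and 12 h passed the F test only with the block (adjusted p = 0.32; 2.7e-05 with it). Experiment 2 gave the higher Thbs1 signal in each group with 2 arrays.

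Thbs2 is a relative of Thbs1 that binds matrix metalloproteinases. Its brightest probe set was -0.49 ± 0.25 at 4 h (adjusted p = 0.28, and 0.0017 with the block) and fell later. In its dimmer probe sets both 4 h arrays of FGF already lay below all quiescent arrays. They read 999 and 912, against 3520, 2372 and 2450, and 1814 and 1930, against 3464, 3126 and 4553. The brightest read 2034 and 2609 at 12 h of FGF, against 4785, 5451 and 7262 in quiescent cells, without overlap. It fell by 0.95 ± 0.25 at 7 h (adjusted p = 0.021; 0.19 leaving out FGF 7 h replicate 1 and 0.22 leaving out quiescent replicate 2) and was at -1.40 ± 0.25 at 12 h (adjusted p = 0.00103). With U0126 it read 3419 and 4835 at 12 h, above both arrays of FGF alone by 0.82 ± 0.25 (adjusted p = 0.046; 0.077 to 0.33 leaving out FGF 12 h replicates 1 or 2 or FGF 12 h + U0126 replicate 2; 0.065 with no filter and 0.059 with quantile normalization). Averaged over 4, 7 and 12 h it rose with U0126 by 0.52 ± 0.14 (adjusted p = 0.017; 0.052 to 0.061 leaving out FGF 12 h replicate 1, FGF 12 h + U0126 replicate 2, FGF 4 h replicate 1, FGF 4 h + U0126 replicate 2, FGF 7 h replicate 1 or FGF 7 h + U0126 replicate 2). Periostin (Postn), a matricellular protein of collagen-rich tissue, read 164 and 192 at 12 h of FGF, against 446, 336 and 325 in quiescent cells. The difference was -0.95 ± 0.24 (adjusted p = 0.012; 0.091 leaving out FGF 12 h replicate 1). Fibronectin (Fn1) is the glycoprotein on which collagen fibrils are laid down, and Sparc binds collagen. Their brightest probe sets did not pass at any time. At 12 h Fn1 read 17723 and 22185, against 24262, 23392 and 22116 (-0.21 ± 0.16, adjusted p = 0.43), and Sparc read 26182 and 28561, against 33644, 31274 and 28305 (-0.15 ± 0.12, adjusted p = 0.48). A dimmer probe set of each was lower at 12 h, as given below. That of Fn1 already read 2090 and 2180 at 4 h, against 4548, 3766 and 3655 in quiescent cells.

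Among genes of proteoglycans and hyaluronan, decorin (Dcn), which coats collagen fibrils, fell and 0 of 5 rose at 12 h of FGF (all genes 11.8% and 8.55%). At 12 h Dcn read 10213 and 10297 with U0126 and 9867 and 10330 with FGF alone, against 15819, 17344 and 15285 in quiescent cells. The arrays at 12 h with and without U0126 were alike, and all lay below quiescence. The difference was -0.48 ± 0.13 at 7 h (adjusted p = 0.025; 0.19 leaving out FGF 7 h replicate 1 and 0.076 leaving out quiescent replicate 2; 0.059 with 75th percentile scaling and 0.51 with its most variable probe set) and -0.66 ± 0.13 at 12 h (adjusted p = 0.0021). With U0126 at 12 h it was -0.63 ± 0.13 (adjusted p = 0.0091; 0.0697 leaving out FGF 12 h + U0126 replicate 1 and 0.057 leaving out FGF 12 h + U0126 replicate 2; 0.089 with its most variable probe set). Biglycan (Bgn), its relative, was -0.35 ± 0.17 (adjusted p = 0.17; 0.018 with the block). Versican (Vcan), a large hyaluronan-binding proteoglycan, rose at 7 h of FGF with U0126 against quiescence by 0.57 ± 0.16 (adjusted p = 0.043; 0.071 to 0.204 leaving out FGF 7 h + U0126 replicates 1 or 2 or quiescent replicate 2; 0.59 with the mean of probe sets, 0.058 with no filter, 0.76 with its most variable probe set and 0.078 with quantile normalization). Has2, the main hyaluronan synthase of fibroblasts, read 1526 at 1 h of FGF, against 692, 810 and 1102 in quiescent cells (0.74 ± 0.24, adjusted p = 0.34; 0.039 with the block). With U0126 at 1 h it read 1580, also above quiescence. Lumican (Lum) was under 45.2 on 12 of 19 arrays and passed in no comparison.

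Of the 7 collagen-modifying genes 2 fell at 12 h of FGF and 0 rose (all genes 11.8% and 8.55%). Loxl1, a lysyl oxidase of elastic fibres, read 7490 and 7980 at 12 h, against 11687, 10714 and 11006 in quiescent cells, a difference of -0.52 ± 0.11 (adjusted p = 0.0043). Plod1, a lysyl hydroxylase, read 1238 and 1069, against 1526, 1686 and 1820, a difference of -0.56 ± 0.14 (adjusted p = 0.012; 0.11 leaving out FGF 12 h replicate 2 and 0.12 leaving out quiescent replicate 2). The dim probe set of Plod1 was higher at 12 h of FGF instead, as given below. Serpinh1, the collagen chaperone HSP47, read 16171 and 17126 at 12 h with U0126, against 11629 and 12210 with FGF alone, without overlap. It rose with U0126 by 0.48 ± 0.12 at 12 h (adjusted p = 0.014; 0.084 leaving out FGF 12 h replicate 1 and 0.11 leaving out FGF 12 h + U0126 replicate 2) and by 0.30 ± 0.07 on average (adjusted p = 0.0044). Lysyl oxidase (Lox), which starts the cross-linking of collagen, Plod2, which hydroxylates the lysines used for cross-links, and the prolyl hydroxylase subunits P4ha1 and P4ha2 did not pass at any time of FGF or with U0126 in the fit without the block. At 12 h of FGF Lox read 16704 and 22458, against 25639, 24345 and 23980 (-0.34 ± 0.18, adjusted p = 0.22). Plod2 read 3701 and 4252, against 3976, 3957 and 5314 (-0.21 ± 0.20, adjusted p = 0.55). P4ha2 passed with the block for U0126 at 12 h (0.47 ± 0.34, adjusted p = 0.48; 0.021 with it) and on average (0.24 ± 0.20, adjusted p = 0.46; 0.026 with it).

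**Figure D4:**
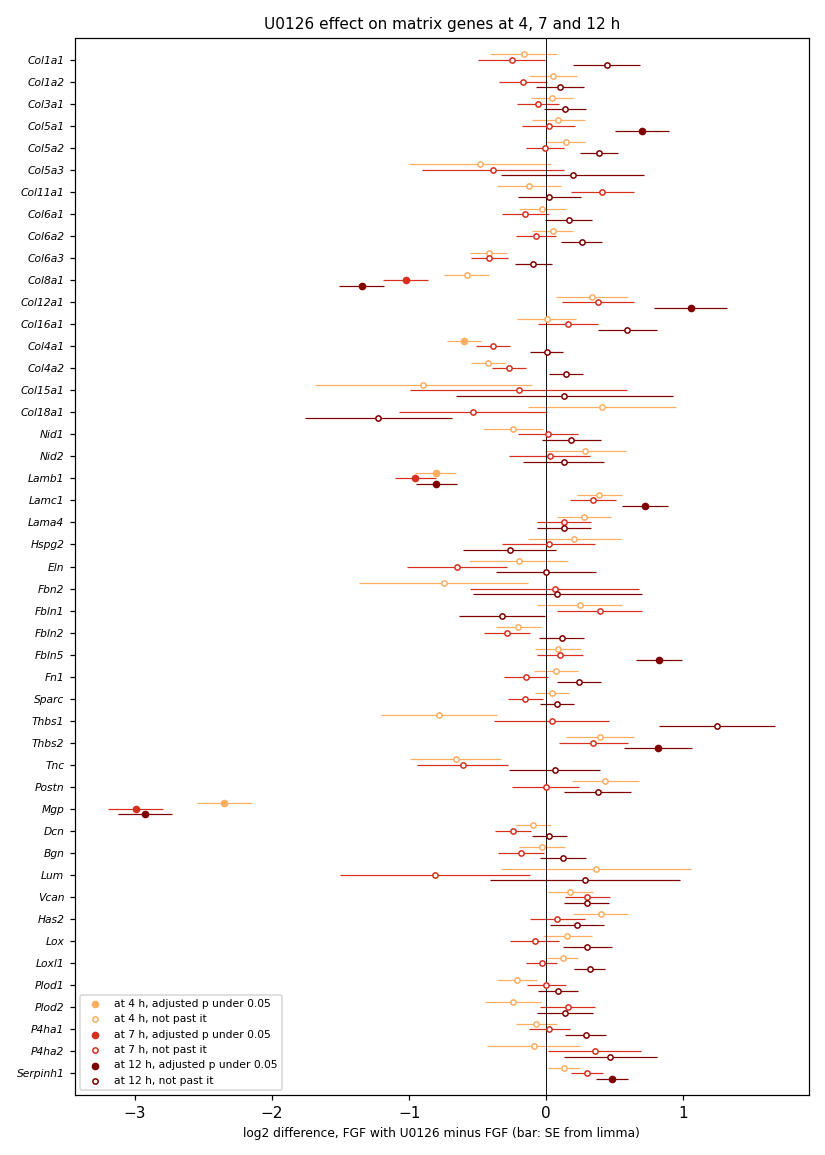
Log2 difference, FGF with U0126 minus FGF alone, for the 47 matrix genes (rows) at 4, 7 and 12 h (colours); bars are the SE from limma, filled points have an adjusted p under 0.05 and open points do not. Mgp lies apart at -2.35, -3.0 and -2.93, Lamb1 is near -0.8 to -0.95 at all 3 times, and the filled points right of 0 are all from 12 h.

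Probe sets of the same gene did not always give the same answer at 12 h of FGF. More than 1 probe set was kept for 33 of the 47 genes, and above each gene is represented by its brightest. Over all kept probe sets, adjusted over 27915, 30 of 94 were lower and 4 higher, where 8.88% and 7.87% of all kept probe sets were. The lower ones lay in 22 genes. These shares are per probe set. None was computed per gene, where more probe sets give more chances of a call, so the gene counts here have no share of all genes beside them. In 7 genes the brightest did not pass and another was lower. In Vcan the brightest did not pass and another was higher (1.08). That one read 27.4, 35.9 and 47.8 in quiescent cells, near or under 45.2, and 97.1 and 97.4 at 12 h. Col3a1 is the plainest case. Its brightest probe set is described above, and the other read 3882 and 3418 at 12 h, against 17221, 11738 and 11245 in quiescent cells, a difference of -1.79 ± 0.15 (adjusted p = 3.99e-06). For Fn1 the dimmer probe set read 1185 and 1381, against 4548, 3766 and 3655, a difference of -1.59 ± 0.35 (adjusted p = 0.0062). The groups of these probe sets did not overlap.

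Both dimmer probe sets of Col1a2 fell as well, with differences of -0.63 ± 0.14 (adjusted p = 0.0057) and -1.41 ± 0.30 (adjusted p = 0.0048). In Bgn, Sparc, Hspg2 and Serpinh1 a dimmer probe set was lower, with differences of -0.71 ± 0.18, -0.43 ± 0.14, -0.80 ± 0.25 and -0.40 ± 0.12 (adjusted p = 0.015, 0.047, 0.041 and 0.0303). In Col5a2 the brightest passed with a difference of -0.53 ± 0.14 and the other with a difference of -1.47 ± 0.15. By contrast, the 3 probe sets of Thbs2 and of Col5a1 and the pair of Col11a1 all fell at 12 h. Plod1 alone had opposite calls: its dim probe set, which read 10.6 to 57.4 in quiescent cells and so near or under 45.2, was higher by 1.32 ± 0.41 (adjusted p = 0.042). The brightest probe sets of 6 of the 47 genes averaged over 20000, where the highest value of any probe set on any array was 55317. When the most variable probe set stood for each gene in place of the brightest, the calls at 12 h of FGF were lost for Col1a1 (adjusted p = 0.12), Col4a1 (0.304), Col4a2 (0.065), Dcn (0.09), Fbln2 (0.66), Loxl1 (0.29), Lamc1, Lama4 and Plod1. The differences of Col1a1, Col4a1, Dcn, Fbln2 and Loxl1 kept their sign there, at -0.72, -0.47, -1.59, -0.32 and -0.53. In quiescent cells the most variable probe set read 63.3, 70.3 and 44.4 for Dcn and 133, 63.9 and 73.2 for Fbln2, far below the brightest. With the mean of a gene's probe sets, those of Col4a1, Fbln2, Lamc1, Lama4 and Plod1 were lost (0.102, 0.067, 0.78, 0.34 and 0.27), and with scaling to the 75th percentile that of Col4a2 (0.059). Of the U0126 effects at 12 h those of Col5a1 (0.14), Fbln5 (0.53), Lamc1 (0.89) and Lamb1 (0.088) were lost with the most variable probe set, and those of Col5a1 (0.097) and Lamc1 (0.18) with the mean. Whether bright signals are compressed, or probe sets read different transcripts of a gene, was not tested.

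**Figure D5:**
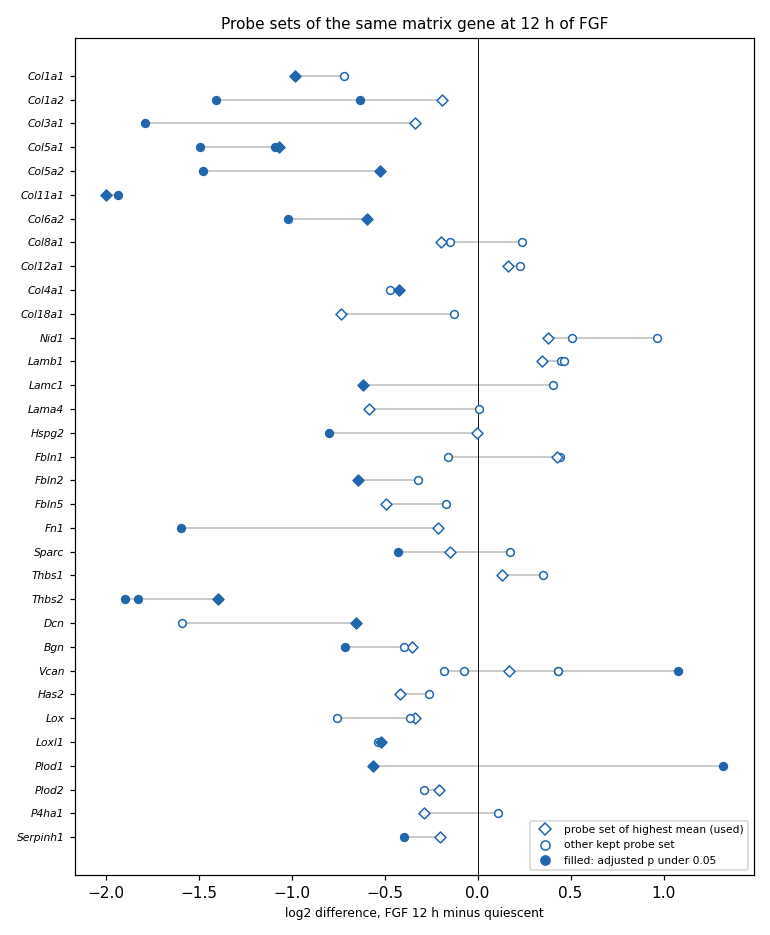
Log2 difference at 12 h of FGF minus quiescent for every kept probe set of the 33 matrix genes with more than 1 (rows); diamonds are the brightest probe set of each gene, circles the others, filled points have an adjusted p under 0.05, and a grey line spans each gene's probe sets. Col3a1, Fn1, Col5a2 and Col1a2 have a wide span with the brightest probe set nearest 0, while the probe sets of Col11a1 lie together near -2.

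Matrix genes outside the 51 were also called lower at 12 h of FGF, from lists chosen with earlier results known. Of 33 tested of 42 listed collagens and structural proteins, 14 fell and 0 rose, with a median of -0.5, where 11.8% and 8.55% of all genes did. The largest falls were in the leucine-rich proteoglycans osteoglycin (Ogn, -3.20 ± 0.26, adjusted p = 1.8e-06), asporin (Aspn, -3.01 ± 0.51, adjusted p = 0.00075), Prelp (-2.26 ± 0.28, adjusted p = 4.6e-05) and osteomodulin (Omd, -2.21 ± 0.56, adjusted p = 0.011). With U0126 on average 4 of this list rose and 2 fell, where 11.7% and 10.3% of all genes did. Ltbp2, which binds elastic microfibrils, fell (-1.48 ± 0.16, adjusted p = 1.05e-05). Matn2, a filament-forming matrilin (0.69 ± 0.11, adjusted p = 0.00041), Emilin1, a glycoprotein of elastic fibres (0.68 ± 0.14, adjusted p = 0.0018), and the laminin chain Lamb2 (0.51 ± 0.11, adjusted p = 0.0024) rose. For 22 tested genes of procollagen folding, transport and processing the median was -0.03 at 12 h of FGF. Of them 3 fell and 0 rose, where 11.8% and 8.55% of all genes did. The genes that fell were Bmp1, the protease that trims procollagen (-1.22 ± 0.25, adjusted p = 0.00305), and the vesicle coat genes Sec23a (-0.92 ± 0.13, adjusted p = 0.00022) and Sec24d (-0.44 ± 0.14, adjusted p = 0.038), which carry procollagen out of the endoplasmic reticulum.

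Of 24 tested regulators of matrix transcription 4 rose and 5 fell at 12 h of FGF, where 8.55% and 11.8% of all genes did. Ski, a repressor of SMAD signalling (-1.31 ± 0.24, adjusted p = 0.0012), the ligand Tgfb3 (-1.26 ± 0.15, adjusted p = 3.6e-05) and the TGF-beta effector Smad3 (-0.88 ± 0.21, adjusted p = 0.0072) fell, and the inhibitory Smad7 rose (0.85 ± 0.27, adjusted p = 0.037). With U0126 on average 3 rose and 6 fell, where 11.7% and 10.3% of all genes did. The 4 that changed most were all lower: Ccn2, a TGF-beta target that promotes matrix synthesis (-1.63 ± 0.16, adjusted p = 2.8e-06), and the transcription factors Twist2 (-1.07 ± 0.08, adjusted p = 1.5e-07), Tcf4 (-0.80 ± 0.12, adjusted p = 0.00019) and Twist1 (-0.74 ± 0.10, adjusted p = 8.7e-05).

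Of 7 fibroblast markers tested, 4 fell at 12 h of FGF and 0 rose, where 11.8% and 8.55% of all genes did: Pdgfrb (-1.37 ± 0.20), Thy1 (-0.98 ± 0.15), Pdgfra (-0.86 ± 0.17) and Ddr2 (-0.60 ± 0.17). The summed signal of the list was 73578 to 90456 at 12 h, against 89297 to 98199 in quiescent cells, and these ranges overlap. Lpl fell at 12 h of FGF (-0.93 ± 0.16) and rose with U0126 on average (1.03 ± 0.09), and its list summed to 7711 to 9781 at 12 h, against 15047 to 18992 in quiescent cells. The macrophage list summed to 1576 to 1704 at 12 h, against 1135 to 1371, with Cd14 higher (0.77 ± 0.15). Its median signals were 881 for Cd14, 199 for Lyz2, 190 for Csf1r, 59 for Adgre1, 59 for Cd68 and 15 for Ptprc. Endothelial markers summed to 129 to 263 at 12 h, against 148 to 162, epithelial markers to 435 to 544, against 522 to 721, and chondrocyte and bone markers to 1651 to 1959, against 2172 to 2801. In that last list Sox9 had a median of 1810 and the others had medians of 10 to 55. The part of these marker lists in the changes of the matrix genes was not tested.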

How the data were processed

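RNA of 19 samples was read on mouse expression arrays with 45101 probe sets, of which 64 are controls. The deposited values are linear intensity signals that the authors made with MAS5, per the submitters' processing notes, scaled to a trimmed mean of 500 on each array; the version is not given in the sources used here. Probe sets were named from the platform annotation: 34945 list 1 gene, 932 several and 9160 none.

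Signals were analysed as log2(signal + 13.6), where 13.6 is the 20th percentile of all values, after quiescent arrays 1a and 1b had been averaged on the log scale. A probe set was kept if at least 2 arrays were above their 40th percentile, and the brightest kept probe set stood for its gene. One limma model (version 3.58.1, R 4.3.3) held all 11 groups (lmFit, then eBayes with a trend; 7 residual and 7.47 prior degrees of freedom), with two-sided p-values adjusted across the 14996 genes after Benjamini and Hochberg and a limit of 0.05. On simulated data with 14952 genes for 12 h of FGF, 85 of 88 genes made 4-fold lower were called. So were 65 of 100 made 2-fold higher and 1 of 14764 unchanged genes. The simulated noise was independent between arrays, and the changed genes were drawn from brighter probe sets. Deviations shared within an experiment, and changes in dim genes, were thus not covered.

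The replicate number is the experiment. Samples of the same number deviated together (r = 0.127 to 0.305 over 21 pairs of groups), so the number pairs the samples. The fit without the block is the main one, and the fit with it is given beside results whose call it changes. Other alternatives were quantile normalization, scaling to the 75th percentile, offsets of 1 and 45.2, no filter, the probe set of highest variance, and leaving out each array. The mean of a gene's probe sets, and late against early U0126, were added after seeing the data.

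Genes described array by array are those called at 12 h of FGF or in the average U0126 effect, up to 8 in each direction, or in its F test over time, plus Col1a1, Col1a2, Col3a1, Fn1, Sparc, Lox, Tnc, Thbs1, Has2, Plod2 and Serpinh1; up to 4 called genes are named per gene list. Values of other called members were added after they were seen. The members and lists were chosen with earlier results of these data known. Promoter windows are from RefSeq on GRCm38.p6; 33 of the 51 genes had one, 8 of them with more than 1 start, of which the first was used.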

Additional observations from a re-analysis of the deposited data

Results flagged for a closer look

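At 12 h of FGF 2 matrix genes differed between late and early U0126. Mgp was higher with U0126 from 7 h than with U0126 from -0.5 h by 3.05 on the log2 scale. Col8a1 was higher in the same comparison by 1.14, a call lost without either array of early U0126 (adjusted p = 0.064 and 0.099 in limma), with its probe set of highest variance (0.4) and with the mean of its probe sets (0.12). Each value sets 1 array of late U0126 against 2 of early U0126.

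The U0126 effect differed between 4, 7 and 12 h for 3 genes in the fit with the experiment block and for 0 without it. The F test with the block gave an adjusted p of 2.73e-05 for Thbs1, 0.0386 for Col1a1 and 0.042 for Fbln5. In the same fit 3.83% of all genes passed.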

How the results depend on the processing

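Among 88 called results of the 47 genes, 41 stayed past the limit in all processing alternatives and 27 also without each array; Mgp kept every call named above. The replicate block, which pairs samples by experiment, gave more calls: 4, 7 and 14 genes for FGF at 1, 4 and 7 h, against 1, 3 and 8 without it, and 15 against 8 between 4 and 12 h. For U0126 the block gave 1, 9, 7 and 16 at 1, 4, 7 and 12 h, and 16 on average, against 0, 3, 3, 9 and 10. For FGF with U0126 against quiescence it gave 11, 23 and 19 at 4, 7 and 12 h, against 2, 8 and 8, for late U0126 4 and 10, against 2 and 3, for late against early U0126 at 7 h 1, against 0, and for the F test over time 3, against 0. It ended no call named above.

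Other counts outside 1.5 times were few. With the probe set of highest variance, counts were 0 at 1 h of FGF and 5 between 4 and 12 h. They were 5 for FGF with U0126 at 12 h and 1 for late against early U0126 at 12 h. With the mean of all probe sets they were 0 at 1 h, 6 for U0126 at 4 h, 1 for late U0126 against early at 12 h. Scaling to the 75th percentile gave 5 at 7 h of FGF, 1 for FGF with U0126 at 4 h and 1 for U0126 from 1 h. The offset of 1 and no filter gave 1 for FGF with U0126 at 4 h, and no filter gave 4 between 4 and 12 h of FGF. 

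Leaving out each array gave 0 to 1, 1 to 3, 3 to 9 and 9 to 18 genes for FGF at 1, 4, 7 and 12 h, and 1 to 5 between 4 and 12 h. It gave 2 to 4, 3 to 3 and 4 to 8 for U0126 at 4, 7 and 12 h, and 8 to 11 on average. It gave 0 to 2, 3 to 12 and 5 to 11 for FGF with U0126 at 4, 7 and 12 h, 2 to 2 and 0 to 2 for late U0126, and 1 to 1 for late against early U0126 at 12 h.

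Directions reversed only by the choice of probe set among the alternatives run. With that of highest variance, the log2 difference was 0.41 for Lamc1, 0.0077 for Lama4 and 1.32 for Plod1 at 12 h of FGF, 0.58 for Plod1 at 7 h, 0.33 for Fbln2 and -0.62 for Vcan at 7 h with U0126, and 0.66 for Nid1 in the average U0126 effect. With the mean of probe sets it was 0.061 and 0.38 for Plod1 at 7 and 12 h. The cause was not tested. The number of arrays limits the precision, and 5 of the 47 genes had at least 1 array under 45.2.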
